A study of Homo sapiens with 8 samples.

Results

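Genes for voltage-gated ion channels and their relatives were followed through retinoic acid (RA) treatment of the human embryonal carcinoma line NTera2/D1, which RA pushes out of its stem-cell-like state. They were chosen by symbol alone: those that begin KCNA, KCNB, KCNC, KCND, KCNH, KCNJ, KCNK or KCNQ, SCN with a digit and A or B, and CACNA, CACNB or CACNG with a digit. This gave 99 of the 19426 genes on the array, and 97 of them are channel genes: 59 for potassium, 12 for sodium and 26 for calcium channels. The other 2, KCNQ1OT1 and KCNQ1DN, are non-coding RNAs of the KCNQ1 region. The name voltage-gated is not exact for all 97, since the KCNJ and KCNK channels lack a voltage sensor and several members are auxiliary subunits.

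The cells had been given a small interfering RNA against RNF20, the ligase that attaches ubiquitin to histone H2B (siRNF20), or, as a control, one against LacZ, a gene of bacteria (siLacZ). Each was treated with the solvent DMSO or with 10 µM RA for 72 h, so that all 4 groups are of 1 cell line with transfected siRNA. Each group held 2 arrays, described in the labels as biological duplicates, with the numbers GF117 and GF120. Nothing in the labels says what these numbers stand for. The comparisons are of RA with DMSO in each background, of siRNF20 with siLacZ under each treatment, and of the RA responses with each other.

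One library, GF117 of siLacZ cells with RA, differed from all others: its correlation with them was 0.135 to 0.239, whereas the remaining 7 had correlations of 0.908 to 0.975 among themselves. It was left out of the values given first, so that RA-treated siLacZ cells are represented by the GF120 array alone, assumed to vary like the others. RNF20 itself read 8.24, 8.09 and 8.10 (log2 intensity) on the siLacZ arrays kept and 5.89 to 6.48 on the 4 siRNF20 arrays. On the library left out it read 6.08, within the range of the siRNF20 arrays and not of the siLacZ arrays kept. What the RNF20 reading there means was not tested. Other genes, picked after their values were seen, also read outside the range of the other 7 arrays. HDAC1 read 6.18 (10.05 to 10.53 on the other 7), SIN3A 5.48 (8.53 to 8.84) and, the other way, NES 9.80 (8.14 to 9.09). That library had a background limit, set by its olfactory receptor genes, of 5.73, which 25.8% of all genes exceeded, against 67.6% to 71.8% on the other 7. Whether it was mislabelled or failed was not tested, and its values are given as those of the library labelled RA siLacZ GF117. Taken singly, they say nothing about RA. Of 10 stem-cell markers 7 fell with RA in siLacZ cells and 7 in siRNF20 cells, among them NANOG and POU5F1. Of 15 neuron markers tested DCX rose in siLacZ cells, and DCX and MAP2 rose in siRNF20 cells, while STMN2, ELAVL4 and SLC17A6 stayed at background on all 7 arrays. Of 6 neural progenitor markers 3 rose in each background: PAX6 and CDH2 in both, MSI1 in siLacZ cells and NES in siRNF20 cells. Of 5 glial markers tested 0 were called with RA. Of 8 smooth muscle and mesenchyme markers ACTA2 and COL1A1 rose in siLacZ cells, and of 8 cardiac and skeletal muscle markers ACTN2 fell in siRNF20 cells. The part that shifts in the mixture of cell states played in the channel values was not tested, and in bulk RNA fewer cells with a transcript cannot be told apart from less transcript per cell.

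Ion channels are membrane proteins that let a chosen ion flow down its gradient. Sodium and calcium channels carry the inward currents of an action potential and of transmitter release, and most potassium channels carry the outward currents that end the spike and hold the resting potential. The pore-forming subunits travel with auxiliary subunits (beta, gamma and alpha-2-delta) that govern surface delivery and gating. RA-treated NTera2 cultures are known to form neurons after weeks of further culture.

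Promoters are shown for the member that rose with RA in both backgrounds, CACNG6, and for 2 that fell, KCNK1 and CACNA2D2. Each is the 250 bases before the annotated start, 5′ to 3′ along the gene, from RefSeq on GRCh38.p14, and capitals mark any of 4 forms of the half-site of retinoic acid receptors, searched on either strand. The canonical form searched was AGGTCA. A variant of it that was searched too is GGGTCA. Another variant taken into the search was AGTTCA. Finally GGTTCA was included in the search.
CACNG6, plus strand, chr19:53991387-53991636: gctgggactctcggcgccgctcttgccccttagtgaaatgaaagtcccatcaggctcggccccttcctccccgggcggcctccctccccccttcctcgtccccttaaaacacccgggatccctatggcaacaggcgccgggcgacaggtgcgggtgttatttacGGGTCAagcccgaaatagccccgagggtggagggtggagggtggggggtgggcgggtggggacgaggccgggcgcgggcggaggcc
KCNK1, plus strand, chr1:233613856-233614105: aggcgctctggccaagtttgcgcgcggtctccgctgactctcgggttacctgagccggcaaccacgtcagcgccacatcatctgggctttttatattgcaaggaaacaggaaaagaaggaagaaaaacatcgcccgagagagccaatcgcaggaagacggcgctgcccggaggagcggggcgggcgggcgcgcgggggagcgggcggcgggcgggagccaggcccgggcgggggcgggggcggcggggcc
CACNA2D2, minus strand, chr3:50504245-50504494: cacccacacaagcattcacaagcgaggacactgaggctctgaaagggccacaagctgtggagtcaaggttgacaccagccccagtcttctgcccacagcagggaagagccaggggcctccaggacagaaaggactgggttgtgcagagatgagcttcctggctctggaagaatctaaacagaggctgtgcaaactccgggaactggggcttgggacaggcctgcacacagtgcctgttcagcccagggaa

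The CACNG6 window held 1 such half-site (GGGTCA), and those of KCNK1 and CACNA2D2 held 0. Any of the 4 forms was present in 33.8% of 35116 promoters and in 20 of the 72 members with an entry (27.8%), so that a match describes the letters and marks no binding site. The CACNG6 and KCNK1 windows were rich in C and G (69.2% in each, with 21 and 30 CG pairs), and that of CACNA2D2 less so (58%, with 2 CG pairs). The half-site forms were chosen after the members' values were known.

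The first question was which channels the cells hold. A gene was taken as above background where the median of all its array rows exceeded the 95th percentile of the same value over 364 olfactory receptor genes, which few tissues outside the nose express. That limit lay between 4.50 and 4.80 (log2 intensity) on the 7 arrays. Probes differ in affinity, so levels of different genes were not ranked. Of the 97 channel genes 34 were above background on all 7 arrays (35.1%), 31 on some and 32 on none, whereas 62.2% of all 19426 genes were above it on all 7. In DMSO siLacZ cells 44 were above it on both arrays, in DMSO siRNF20 cells 48, in RA siRNF20 cells 38, and 50 on the lone RA siLacZ array. The limit itself was highest, at 4.80, on the GF120 RA siRNF20 array, and a group of 1 array passes the rule more easily than a group of 2.

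Calcium channel subunits made up 15 of the 34. All 4 alpha-2-delta genes were among them, as were CACNA1A, CACNA1B, CACNA1C and CACNA1H, which form channels of the P/Q, N, L and T types. Of the beta subunits CACNB1 and CACNB3 were above background on every array, and of the gamma subunits 5 of 8. CACNA1S, the calcium channel of skeletal muscle, was above it on none.

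Potassium channels were unevenly held. Of 15 tandem-pore KCNK genes, which set the resting leak, 7 were above background on all 7 arrays, against 3 of 15 inward rectifiers (KCNJ4, KCNJ8 and KCNJ12) and 3 of 15 Kv1 to Kv4 genes (KCNA5, KCNA6 and KCND1). KCNJ12 has a close copy in the genome, so its reading may include that copy. Among 8 KCNH genes KCNH2, which carries the repolarising current of the heart, KCNH3 and KCNH6 were above it throughout, and KCNQ1 was the KCNQ member to be so. The inward rectifier genes below background on all 7 arrays numbered 11, among them KCNJ11, which forms ATP-sensitive channels, and KCNJ3 and KCNJ5, which G proteins open.

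Sodium channels were mostly at background. Of 9 alpha subunits SCN8A was above it on all 7 arrays, with levels from 6.26 to 6.93, and SCN10A, SCN11A, SCN1A, SCN2A, SCN3A and SCN7A were above it on none. SCN8A encodes the sodium channel of the axon initial segment. Of the 3 beta subunits SCN4B was above background on all 7 arrays.

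A stricter limit, the 99th percentile of olfactory receptor genes, was passed on all 7 arrays by 9 channel genes of 97, against 8034 of all 19426 genes. These 9 were CACNA1H, CACNA2D2, CACNB3, CACNG7, KCNA6, KCNJ8, KCNK12, KCNK5 and SCN8A. KCNK5, an acid-sensitive leak channel, ranged from 7.52 to 8.37, and KCNJ8, a pore of ATP-sensitive channels, from 6.68 to 7.41. The number held therefore depended on the limit, and with the stricter percentile it was 12 or 13 in each group. It depended on the rows as well: with only rows above the dim limit used, for channel and olfactory receptor genes alike, 8 channel genes were above background in DMSO siLacZ, 7 in DMSO siRNF20, 9 in RA siLacZ and 3 in RA siRNF20 cells.

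**Figure D1:**
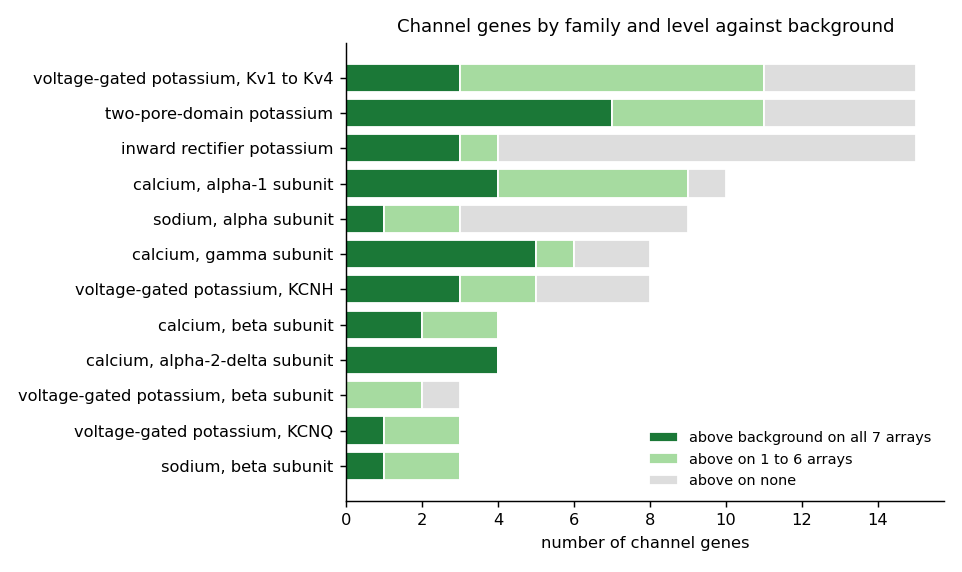
Number of channel genes in each family (horizontal axis) by whether their level exceeded background on all 7 arrays, on 1 to 6 of them or on none. The alpha-2-delta bar is wholly dark (4 of 4), while 11 of 15 inward rectifiers were above background on none.

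The second question was which channels RA turns on or off. For this the rows brighter than the median row were summarised by their median for each gene, and all 99 genes had at least 1 such row, although 62.7% of their rows passed against 78.3% of all named rows. In siLacZ cells limma called 1 member higher and 3 lower with RA (adjusted p under 0.05), 4.04% of the 99, against 3.91% of all 18732 genes tested (1.88% higher and 2.03% lower). In siRNF20 cells 1 rose and 4 fell, 5.05% against 3.92% (1.79% higher and 2.13% lower). The 4 include KCNJ6, whose single row passed the filter on dim rows through the DMSO arrays, so its call adds no support to this share. KCNJ6 is also among the 2-fold decreases counted below. At an unadjusted p under 0.05 there were 16 members in siLacZ cells, 16.2% against 16.4% of all genes, and 18 in siRNF20 cells, 18.2% against 15.3%. The share of channel genes that RA changed was thus near that of all genes in both backgrounds. The median difference of the 99 was -0.04 and -0.08, against -0.05 and -0.03 over all genes. Differences of at least 2-fold, called or not, were seen for 1 member upward and 6 downward in siLacZ cells (3.14% and 3.77% of all genes) and for 1 upward and 4 downward in siRNF20 cells (2.08% and 2.17%).

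The 6 members called in at least 1 RA comparison were CACNG6, which rose, and CACNG7, CACNA2D2, KCNK1, KCNA1 and KCNJ6, which fell. CACNG6, CACNG7 and KCNK1 were called in both backgrounds. The share of all genes called in both was not computed. The RA comparisons in siLacZ and in siRNF20 cells share no array, but they are not independent. They come from 1 fit with a pooled spread, and the rows were filtered over all 7 arrays.

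CACNG6, a gamma subunit gene of calcium channels, was the member that rose. Its value was 5.75 and 5.85 on the DMSO siLacZ arrays and 7.75 on the RA siLacZ array, and 5.64 and 5.65 on the DMSO siRNF20 arrays against 6.78 and 6.86 with RA. Every RA array lay above every DMSO array, with no overlap. Here and below, a lack of overlap was not set against its share over all genes. The difference was 1.95 on the log2 scale, 3.85-fold, in siLacZ cells (SE 0.24, adjusted p = 0.00216 by limma, n = 1 and 2) and 1.18, 2.26-fold, in siRNF20 cells (SE 0.20, adjusted p = 0.0103, n = 2 and 2). Of its 9 array rows 8 had a higher value on the RA array than on both controls in siLacZ cells, and 6 did so on both RA arrays in siRNF20 cells. Rows of a gene are read on the same arrays and are not replicates. Here and below, such counts describe the gene value, add no separate support and were not set against those of all rows. With the library labelled RA siLacZ GF117 included, where CACNG6 read 7.18, the difference in siLacZ cells was 1.66 (adjusted p = 0.402). In siRNF20 cells the call ended when either DMSO siRNF20 array was left out (1.17, adjusted p = 0.0851, for GF117 and 1.18, adjusted p = 0.0772, for GF120). With all 8 arrays, whose spread is pooled, every call in siRNF20 cells ended as well, with an adjusted p of 0.708 for KCNJ6 and 1.00 for the others.

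CACNG7, a gamma subunit that also assists AMPA-type glutamate receptors, went the other way. It read 8.33 and 8.12 with DMSO and 7.11 with RA in siLacZ cells, and 7.98 and 7.99 with DMSO and 7.05 and 7.19 with RA in siRNF20 cells. RA and DMSO arrays again did not overlap. The decrease was 1.11 (log2 -1.11, SE 0.22, adjusted p = 0.0233) and 0.87 (log2 -0.87, SE 0.18, adjusted p = 0.0275). Of 11 rows 10 were below both controls in siLacZ cells and 9 in siRNF20 cells. CACNG7, CACNG8 and CACNG6 follow one another in that order among the protein-coding genes of chromosome 19 in RefSeq. CACNG8, which was not called, stood at -0.51 (adjusted p = 0.420) and -0.20 (adjusted p = 0.788). Both CACNG7 calls ended without the intensity trend (adjusted p = 0.0586 and 0.0668) and when single arrays were left out. That in siLacZ cells ended when a DMSO siLacZ array was left out (adjusted p = 0.134 for GF117 and 0.0642 for GF120) or a DMSO siRNF20 array (0.0507 and 0.0521). That in siRNF20 cells ended when a DMSO siRNF20 array was left out (adjusted p = 0.190 for GF117 and 0.178 for GF120), GF117 with RA and siRNF20 (0.0883) or GF120 with DMSO and siLacZ (0.0502). With dim rows included the adjusted p was 0.138 and 0.149. With all 8 arrays the difference in siLacZ cells was -1.61 (adjusted p = 0.440).

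Of the 8 gamma subunit genes 1 rose, 1 fell and 6 were not called in each background, with medians of -0.55 in siLacZ and -0.25 in siRNF20 cells. CACNG2 stood at -0.99 and -0.33 and CACNG4 at -0.80 and -0.30, neither of them called.

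CACNA2D2, an alpha-2-delta subunit that helps carry calcium channels to the surface, fell in siLacZ cells. Its value was 7.80 and 8.05 with DMSO and 6.69 with RA in siLacZ cells, and 7.47 and 7.63 with DMSO and 7.02 and 6.997 with RA in siRNF20 cells. The RA values were below the DMSO values in both backgrounds. The decrease was 1.24 in siLacZ cells (log2 -1.24, SE 0.23, adjusted p = 0.0172), and the difference in siRNF20 cells was -0.54 (SE 0.19, adjusted p = 0.182), which was not called. Of its 44 rows 40 were lower in siLacZ cells and 32 in siRNF20 cells, without overlap. The call in siLacZ cells ended when either DMSO siLacZ array was left out (-1.36, adjusted p = 0.0555, for GF117 and -1.12, adjusted p = 0.0949, for GF120), and with all 8 arrays (-1.85, adjusted p = 0.440). All 4 alpha-2-delta genes had negative differences in both backgrounds, as did 41 of the 99 members. The 4 had medians of -0.55 and -0.47, against -0.05 and -0.03 over all genes, and CACNA2D2 was the one called. That of CACNA2D3 in siLacZ cells was -0.06, with an RA value of 6.08 between the DMSO values of 6.40 and 5.88. The share of all genes lower in both backgrounds was not computed.

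KCNK1, a leak channel of the tandem-pore family, had the lowest fitted difference of the members in siLacZ cells. It read 6.81 on both DMSO siLacZ arrays and 4.48 on the RA siLacZ array. In siRNF20 cells it read 7.12 and 6.57 with DMSO and 5.80 and 5.64 with RA. The groups did not overlap in either background. The fitted decrease was 2.33 in siLacZ cells (log2 -2.33, SE 0.29, adjusted p = 0.00221) and 1.13, or 2.19-fold, in siRNF20 cells (log2 -1.13, SE 0.24, adjusted p = 0.0317). The RA siLacZ value lay just below that array's background limit of 4.50. That limit was set on the median of all rows of a gene, and the fitted KCNK1 values on brighter rows alone. The size of the fold is therefore uncertain, and no bound is given. The fitted KCNK1 values rest on 5 of its 13 rows. In siLacZ cells the stricter filter on dim rows gave -1.44 (adjusted p = 0.0330) and the mean over rows -1.56 (adjusted p = 0.0260). The 8 dim rows put the median of all its rows at background on every array, and with them included the difference was -0.78 (adjusted p = 0.359) and -0.59 (adjusted p = 0.418). All 13 rows had a negative difference in siLacZ cells and 12 of 13 in siRNF20 cells. The library labelled RA siLacZ GF117 read 4.85, and with it the difference in siLacZ cells was -2.14 (adjusted p = 0.264). In siRNF20 cells the call also ended without the intensity trend (adjusted p = 0.0538) and on leaving out any of 5 arrays: GF117 DMSO siRNF20 (-0.86, adjusted p = 0.301), GF120 RA siRNF20 (-1.05, adjusted p = 0.109), GF117 RA siRNF20 (adjusted p = 0.0656), GF117 DMSO siLacZ (adjusted p = 0.0623) and GF120 DMSO siLacZ (adjusted p = 0.0633).

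The rest of the KCNK family was not called. KCNK5 went from 7.52 and 7.64 to 8.37 in siLacZ cells (0.79, adjusted p = 0.183) and from 7.92 and 7.86 to 7.65 and 8.30 in siRNF20 cells (0.09, adjusted p = 0.922), where the groups overlapped. KCNK2, a stretch-sensitive leak channel, stood at 0.67 (adjusted p = 0.311) and 0.56 (adjusted p = 0.318). Of its 18 rows 14 were higher and 1 lower in siLacZ cells without overlap, and 8 higher and 0 lower in siRNF20 cells.

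KCNA1, a delayed rectifier of axons, was called in siRNF20 cells. It read 6.26 and 6.06 with DMSO and 4.97 and 5.24 with RA there (log2 -1.06, SE 0.23, adjusted p = 0.0381). In siLacZ cells it read 6.03 and 5.95 with DMSO and 4.96 with RA (log2 -1.03, SE 0.28, adjusted p = 0.0911), not called. The values of RA and DMSO did not overlap on the 7 arrays, but the evidence within the gene was mixed. Of its 10 rows 6 were lower and 1 higher in siRNF20 cells, and with a stricter filter on dim rows the difference was 0.36 (adjusted p = 0.629) in siRNF20 and 0.28 (adjusted p = 0.766) in siLacZ cells, the reverse direction. With the mean over rows it was -0.49 (adjusted p = 0.222) and -0.60 (adjusted p = 0.218). The library labelled RA siLacZ GF117 read 6.64, above both controls, but that library's single values say nothing about RA. The call was lost on leaving out any single array of the siRNF20 groups (adjusted p from 0.0625 to 0.286) or either DMSO siLacZ array (adjusted p = 0.0692 without GF117 and 0.0691 without GF120).

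KCNJ6, a G protein-gated inward rectifier, was also called lower in siRNF20 cells, where it read 5.44 and 5.22 with DMSO and 3.49 and 2.47 with RA (fitted log2 -2.35, SE 0.40, adjusted p = 0.0105). In siLacZ cells it read 4.87 and 5.16 with DMSO and 3.80 with RA (log2 -1.22, SE 0.49, adjusted p = 0.252). Its value comes from a single row of 11, which passed the filter on dim rows (3.97, as a mean over the 7 arrays) through the DMSO arrays, since all 3 RA values lay below that level. Both RA siRNF20 values also lay below the background limits of their arrays, which were set on the median of all rows. The call is therefore no independent support, and the size of the fold is uncertain. The median of all its rows was at background on all 7 arrays, and with all rows the difference in siRNF20 cells was -0.67 (adjusted p = 0.390). When GF117 of the DMSO siRNF20 cells was left out the difference was -2.24 (adjusted p = 0.0795).

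**Figure D2:**
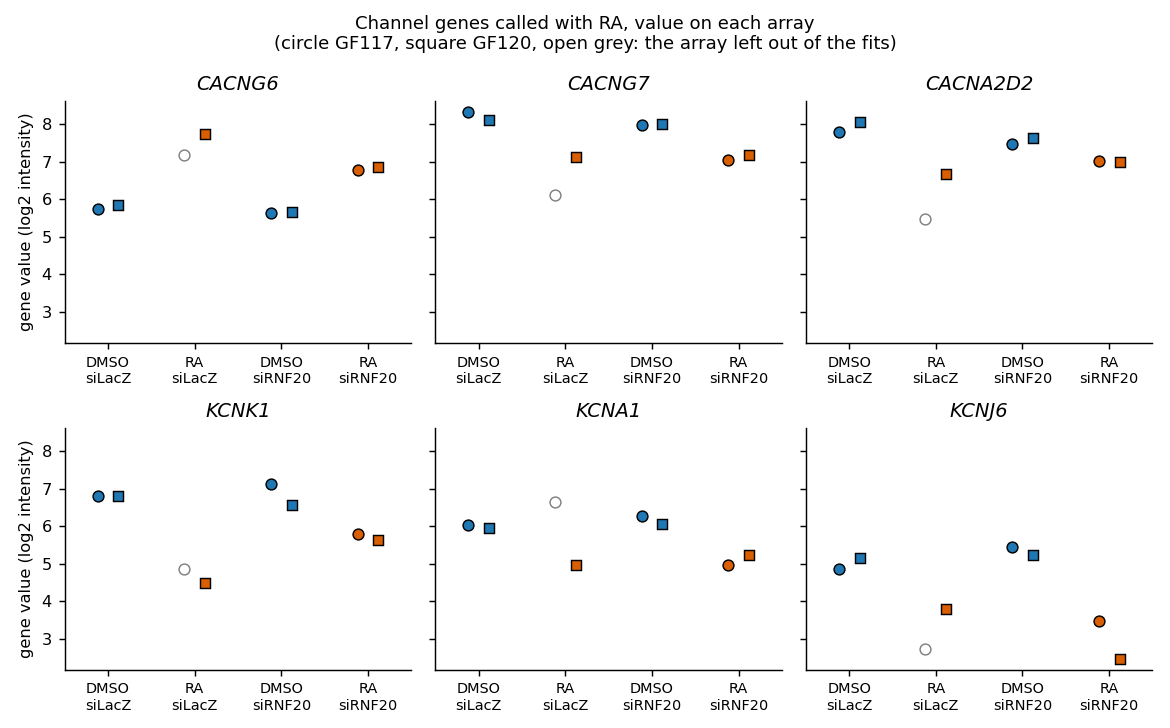
Value of each of the 6 called genes (vertical axis, log2 intensity) on every array by group, circles for GF117 and squares for GF120, with the array left out of the fits in open grey. CACNG6 is higher on every RA array (6.78 to 7.75) than on every DMSO array (5.64 to 5.85). On the open point, which says nothing about RA, KCNA1 lies above its controls (6.64).

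**Figure D3:**
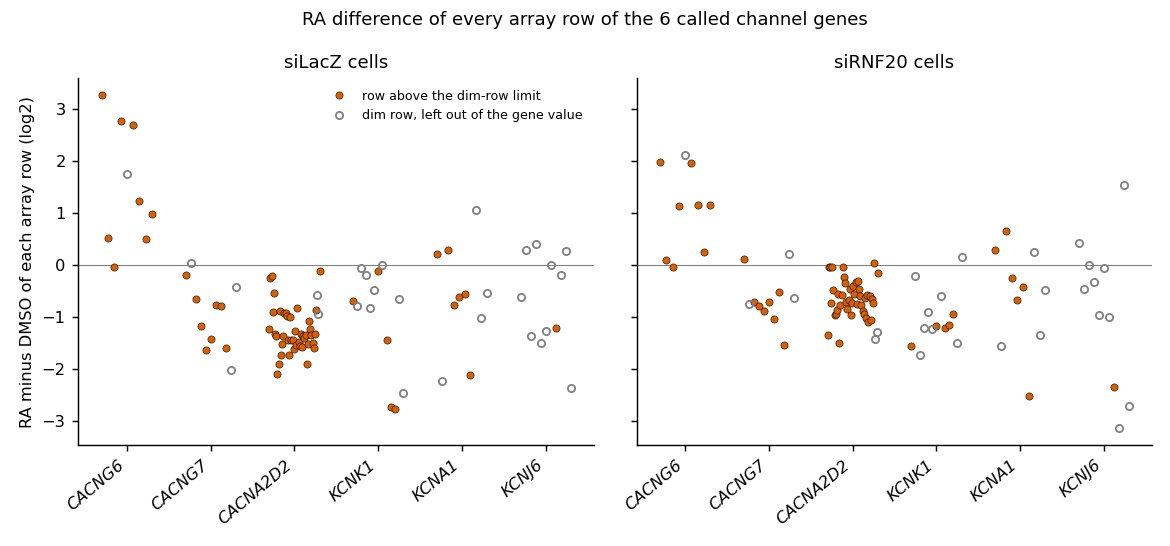
RA difference (vertical axis, log2) of every array row of the 6 called genes in siLacZ (left) and siRNF20 cells (right), filled where the row entered the gene value and open where it was dim. The 44 CACNA2D2 rows lie almost wholly below 0, while KCNJ6 rests on 1 filled row of 11.

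Among the fast A-type and delayed rectifier channels of the Kv1 to Kv4 families 0 of 15 were called in siLacZ cells and 1, KCNA1, in siRNF20 cells. Of the 15, 11 had a negative difference in siLacZ and 11 in siRNF20 cells, with medians of -0.19 and -0.32 against -0.05 and -0.03 for all genes. KCND2, which carries the A-type current of dendrites, read 5.95 and 4.82 with DMSO and 3.62 with RA in siLacZ cells, and 5.70 and 5.67 with DMSO and 4.76 and 4.16 with RA in siRNF20 cells. Its RA values lay below its DMSO values in both backgrounds. The difference was -1.77 (SE 0.48, adjusted p = 0.0870) and -1.22 (SE 0.39, adjusted p = 0.146), not called. The RA siLacZ value lay below the limit for dim rows (3.97), and the DMSO siLacZ values lay far apart, so the size in siLacZ cells is uncertain. KCNA2, a partner of KCNA1 in axonal channels, differed little in siLacZ cells (-0.04) and by -0.98 in siRNF20 cells (adjusted p = 0.107), from 3 rows of 10. KCNA5 had values of 0.66 and 0.69 (adjusted p = 0.269 and 0.155). KCNA1, KCND2 and the beta subunit KCNAB2 crossed the background limit with RA: they were above it on all 4 DMSO arrays and on none of the 3 RA arrays kept. Some margins were small. On DMSO siLacZ arrays KCND2 read 4.713 against a limit of 4.698 (GF120), and KCNA1 4.65 against 4.62 (GF117). KCNAB2 read 4.53 against 4.57 on the GF117 RA siRNF20 array, and its fitted differences of -0.40 and -0.27 were not called. The share of all genes that crossed the limit was not computed. The KCNH and KCNQ families gave 0 calls, with medians of 0.05 and -0.56 in siLacZ and -0.02 and -0.16 in siRNF20 cells.

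Inward rectifiers other than KCNJ6 were not called. In siLacZ cells KCNJ11 (0.93), KCNJ2 (0.88) and KCNJ1 (0.83) were among the 6 highest members, each at background on all 7 arrays by the median of all rows, and in siRNF20 cells they stood at 0.12, -0.18 and -0.01. KCNJ12 stood at 0.04 and 0.55 (adjusted p = 0.972 and 0.289).

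Sodium channels gave 0 calls among 12 genes in either background. Their median difference was 0.13 in siLacZ and -0.01 in siRNF20 cells. SCN3B, an auxiliary beta subunit, was the member that went from below background on all 4 DMSO arrays to above it on all 3 RA arrays kept. By the median of all rows it read 3.88, 4.05, 4.03 and 4.44 with DMSO and 5.20, 4.82 and 5.12 with RA. For this direction, too, the share of all genes that crossed was not computed. In the fit its difference was 0.95 (SE 0.36, adjusted p = 0.219) in siLacZ cells and 0.50 (SE 0.29, adjusted p = 0.495) in siRNF20 cells, not called. SCN9A, the sodium channel of pain-sensing neurons, had values of 0.48 and 0.51 (adjusted p = 0.697 and 0.631). SCN8A differed by 0.17 and -0.00.

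Pore-forming calcium channel genes were also without a call. Of 10 alpha-1 genes 6 had a positive difference in siLacZ and 4 in siRNF20 cells. CACNA1D, an L-type channel, read 4.31 and 4.63 with DMSO and 5.37 with RA in siLacZ cells (0.89, SE 0.37, adjusted p = 0.266), and 39 of its 58 rows were higher there without overlap. In siRNF20 cells it read 4.44 and 4.71 with DMSO and 4.57 on both RA arrays (-0.00, SE 0.30), where 12 rows were higher and 5 lower. CACNA1H stood at 0.48 and 0.29 (adjusted p = 0.338 and 0.540). CACNB3, a beta subunit, read 6.79 and 7.08 with DMSO and 7.41 with RA in siLacZ cells, and 6.43 and 6.13 with DMSO and 7.25 and 6.81 with RA in siRNF20 cells. The differences of 0.47 (adjusted p = 0.478) and 0.75 (adjusted p = 0.133) were not called.

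**Figure D4:**
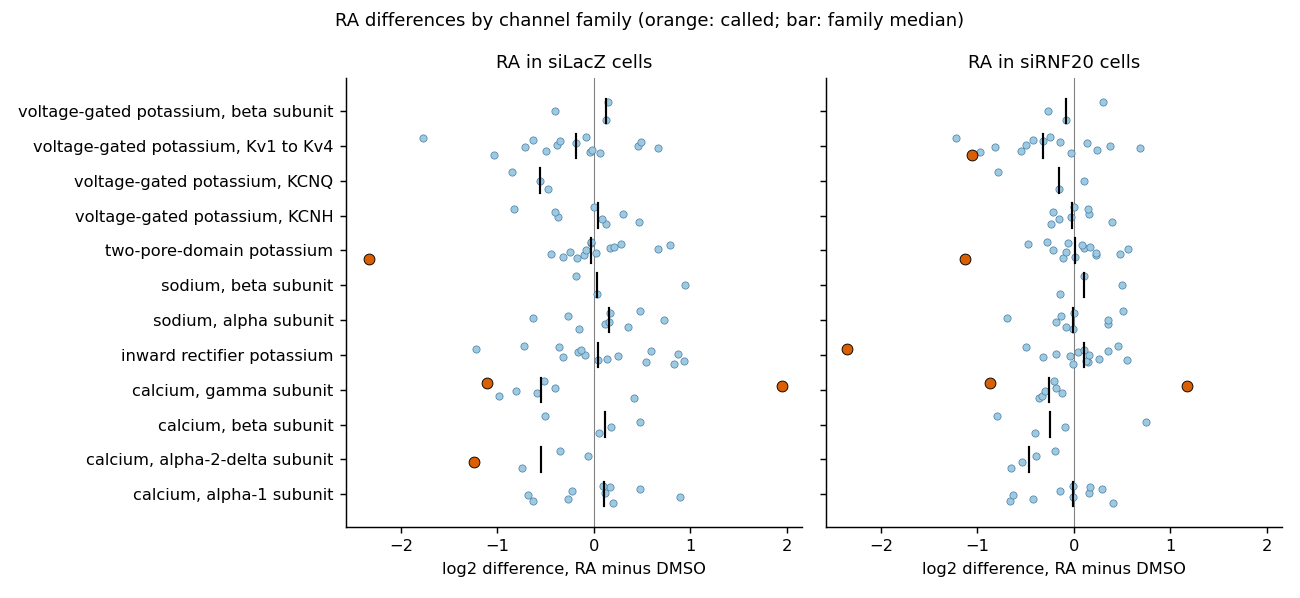
Log2 difference with RA (horizontal axis) of the channel genes by family in siLacZ (left) and siRNF20 cells (right), with called genes in orange and a bar at each family's median. The calls lie in the gamma, alpha-2-delta, KCNK, inward rectifier and Kv1 to Kv4 families, and the sodium rows hold 0.

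Across the 99 genes the RA differences of the backgrounds had the same sign for 66 and the opposite sign for 33, with 25 higher and 41 lower in both. The Pearson correlation was 0.696 and the Spearman correlation 0.629 across genes, which are not independent replicates and were read with the same probes. Differences below -0.5 in both backgrounds were found for 13 genes and above 0.5 in both for 3. The same counts were not computed over all genes, so they describe the members and show no tilt particular to them.

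**Figure D5:**
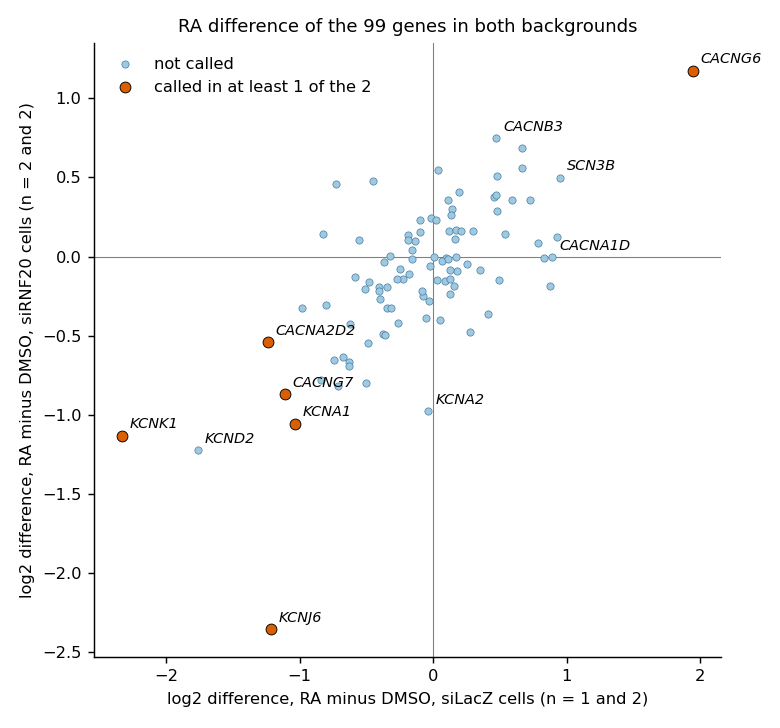
Log2 difference with RA in siLacZ cells (horizontal axis) against that in siRNF20 cells (vertical axis) for the 99 genes, with those called in at least 1 of the comparisons in orange. CACNG6 stands alone at the upper right (1.95 and 1.18), and KCNK1 lies farther from 0 in siLacZ cells (-2.33) than in siRNF20 cells (-1.13).

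The third question was whether RNF20 depletion changed channel genes. limma called 0 of the 99 members in DMSO (7 at an unadjusted p under 0.05), against 0% of all genes, and 0 in RA (4 at an unadjusted p under 0.05), against 0.0107% of all genes, of which 2 were called. In DMSO the 7 members were 7.07% of the 99, against 2.77% of all genes at that unadjusted level; in RA the 4 were 4.04% against 7.93%. At least 2-fold, called or not, 1 member was higher and 0 lower in DMSO (0.256% and 0.16% of all genes), and 1 higher and 0 lower in RA (1.51% and 0.715%). CACNA1H, which carries a T-type calcium current, read 7.16 and 7.20 in siLacZ and 6.64 and 6.70 in siRNF20 cells with DMSO, and 7.66 against 6.93 and 7.001 with RA. The groups did not overlap under either treatment, and the differences of -0.51 (SE 0.18, adjusted p = 1.00) and -0.69 (SE 0.22, adjusted p = 0.479) were not called. CACNA1H was named as 1 of the 4 lowest in DMSO, and the share of all genes without overlap was not computed. CACNB3 stood at -0.65 (SE 0.23) in DMSO and -0.38 in RA, and KCNA3, a delayed rectifier also known from T cells, at -0.66 (SE 0.27) and -0.71. KCNH7 was the other among the 4 lowest in DMSO, at -0.64.

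The highest in DMSO were KCNJ10 (1.23, SE 0.46), a glial inward rectifier measured by 1 row here, KCNJ11 (0.73), SCN7A (0.68) and KCNA10 (0.63), all at background by the median of all rows. With RA the highest were KCNK1 (1.24, SE 0.29, adjusted p = 0.264), KCND2 (0.84), KCNJ10 (0.83) and SCN7A (0.81). The lowest were CACNG6 (-0.93, SE 0.24, adjusted p = 0.324), KCNJ6 (-0.82), CACNA2D3 (-0.80) and CACNA1D (-0.80). None of these was called, and the RA comparison rests on the lone siLacZ array.

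Taking the RA response in siLacZ cells from that in siRNF20 cells, limma called a difference for 0 of the 99 members (4 at an unadjusted p under 0.05, or 4.04%, against 3.93% of all genes) and for 0% of all genes. It was at least 2-fold, called or not, for 2 members upward and 2 downward (1.93% and 1.35% of all genes). KCNK1 had the highest value, 1.198 (SE 0.38, adjusted p = 0.999), so that its smaller decrease in siRNF20 cells was not shown to differ. The others among the 4 highest were KCNJ9 (1.19), KCNH7 (0.97) and KCNK15 (0.93). The lowest were KCNJ6 (-1.14), KCNJ2 (-1.06), KCNA2 (-0.94) and CACNA1D (-0.90), each with an adjusted p of 0.999. That of CACNG6 was -0.77 (SE 0.31, adjusted p = 0.999).

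Related channels and partners outside the symbol rule were followed in lists. Results of the alternative fits are given for the members alone, so how firm the calls in these lists are is not shown. Those in siLacZ cells rest on the lone RA siLacZ array. Of 24 accessory and modifier subunits KCNG3 fell in both backgrounds, a silent subunit that alters the gating of its partners. It read 7.97 and 8.23 with DMSO and 5.97 with RA in siLacZ cells, and 7.99 and 8.23 with DMSO and 7.19 and 6.73 with RA in siRNF20 cells (log2 -2.13, adjusted p = 0.00217, and -1.15, adjusted p = 0.0186). KCNIP1, a calcium-sensing partner of the KCND channels, read 4.82 and 4.89 with DMSO and 7.31 with RA in siLacZ cells and rose by 2.45 (SE 0.31, adjusted p = 0.00227). In siRNF20 cells it read 4.81 and 4.84 with DMSO and 5.43 and 5.90 with RA (0.84, adjusted p = 0.123), not called. On the library labelled RA siLacZ GF117 it read 3.99, below its controls.

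Of 11 calcium- and sodium-activated potassium channel genes KCNN2, which follows the spike with a slow outward current, fell in both backgrounds (log2 -1.43, adjusted p = 0.0147, and -0.91, adjusted p = 0.0449). Of 15 other cation channels tested, the HCN family included, 0 were called with RA. Of 14 ion pumps and cotransporters ATP1B1, a subunit of the sodium pump, rose in siRNF20 cells (0.92, adjusted p = 0.0340). Of 9 scaffold and silencing factors 0 were called. REST, the repressor known to hold neuronal channel genes such as SCN2A silent in other cells, read 8.57 and 8.55 with DMSO and 8.45 with RA in siLacZ cells, and 8.53 and 8.49 with DMSO and 8.95 and 8.52 with RA in siRNF20 cells (-0.11 and 0.23, adjusted p = 0.879 and 0.660). SCN2A, named here as the example just given, was above background on none of the 7 arrays, as were 6 of the 9 sodium alpha subunits in all. Whether REST has a part in this was not tested.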

How the data were processed

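Each deposited value is an intensity on a linear scale for 1 row of an Affymetrix Human Exon array. The authors' background correction and normalization are not stated by the labels or file headers. Of 1384231 rows 354600 carried 1 gene symbol in the platform table and were used; old symbols were updated through the RefSeq gene table. Values were taken as log2 with no further normalization. The fitted gene value is the median of rows whose mean over the 7 arrays was above the median row. limma (version 3.58.1, R 4.3.3) fitted the 4 group means to 7 arrays over 18732 genes, with an intensity trend and Benjamini-Hochberg adjustment, and genes were called below 0.05. All p-values are two-sided. Precision is limited by the few arrays: for 2 against 2 the smallest exact permutation p would be 0.333.

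GF117 and GF120 were not taken as a pairing, since the labels do not explain them. Named members were those called, the 6 highest and lowest RA differences (4 in the other comparisons) and those that crossed background with RA; KCNK5, SCN8A, CACNG2, CACNG4 and CACNG8 were added after their values were seen, as were genes named only as above or below background. The members and lists were chosen with earlier results of these data known. The array left out, too, was known from those results. Alternatives covered the arrays, the row filter, the summary over rows, an offset of 16, quantile normalization, the trend, the GF block and each array in turn. Figures were drawn with matplotlib 3.10.9.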

Additional observations from a re-analysis of the deposited data

Results flagged for a closer look

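On the library labelled RA siLacZ GF117, which the comparisons above leave out, CACNG6 read 7.18 (log2 intensity), above the highest DMSO siLacZ array (5.85). KCNA1 read 6.64 there, above its highest DMSO siLacZ array (6.03). Both were picked out because a signal above the controls appeared on an array outside the main comparisons. With a correlation of 0.135 to 0.239 with the other arrays and 25.8% of all genes above its background limit, that library's single values say nothing about RA.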

How the results depend on the processing

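The count of channel genes called with RA in siLacZ cells (4) was 0 with all 8 arrays and 2 without the filter on dim rows, and leaving out one array gave 2 to 48, the latter when the library labelled GF117 stood for RA siLacZ cells in place of GF120, a fit that called 69.8% of all genes. With RA in siRNF20 cells (5) it was 0 with all 8 arrays, 1 without the filter, 3 with the stricter filter, 3 without the intensity trend and 11 with the replicate block by GF number, and leaving out one array gave 0 to 5 (0 without the GF117 DMSO siRNF20 array). Deviations of same-numbered arrays from their group means correlated at 0.297 to 0.364. With the block 6 were called in siLacZ cells, the gains being KCNA1 (-1.03, adjusted p = 0.0368) and KCND2 (-1.47, adjusted p = 0.0362), and those in siRNF20 cells were KCND2 (-1.22, adjusted p = 0.0234), KCNA2 (-0.98), KCNA6 (-0.82), CACNB3 (0.75), CACNA1B (-0.66) and CACNA2D2 (-0.54). The counts of siRNF20 against siLacZ under RA, and of unequal responses, were 0 in every fit that kept the GF120 RA siLacZ array, and ran from 0 to 44 and from 0 to 35 over the leave-one-out fits, the highest with GF117 in its place, when 67.7% and 60.2% of all genes were called. That for siRNF20 in DMSO was 0 throughout. KCNA1 in siRNF20 cells reversed with the stricter filter (0.36). CACNG6 in siLacZ cells kept its call in 13 of the 14 alternatives that held the GF120 RA siLacZ array and lost it with all 8 arrays (1.49 to 2.33 over the 14); in siRNF20 cells it was kept in 11 of 14. The cause of these changes was not tested. All genes called with RA in siLacZ cells numbered 733, against 1792 with the block, and 734 against 1959 in siRNF20 cells; for siRNF20 in RA they numbered 2, against 232 with the block. Channel genes above background fell with the 99th percentile to 13 (DMSO siLacZ), 13 (DMSO siRNF20), 12 (RA siLacZ) and 13 (RA siRNF20), and with rows above the dim limit alone to 8, 7, 9 and 3; with the 90th percentile RA siRNF20 cells held 59.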

Other observations

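On the library labelled RA siLacZ GF117, whose single values say nothing about RA, 3 further members read far above every other array: KCNJ11 at 8.83 (5.36 to 7.27 on the other 7), KCNJ1 at 7.72 (3.62 to 4.72) and KCNA7 at 8.36 (3.76 to 5.17). These members were chosen after their values were seen.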
